A study of Mus musculus with 14 samples.

Results

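Small leucine-rich proteoglycans are secreted matrix proteins, and 8 of their genes were described here across whole eyes of newborn mice: Kera, Lum, Fmod, Prelp, Ogn, Dcn, Aspn and Bgn. Their members were taken as every probe set that the array annotation gave to 1 of these genes alone, which gave 18 of 20380 such probe sets and 8 of 12393 genes. Kera, Lum and Dcn had 1 probe set each, Ogn, Aspn and Prelp had 2, Bgn had 3 and Fmod had 6. Levels are the log2 of the deposited probe set intensity, so a difference of 1 stands for a factor of 2, and levels of different probe sets were not compared.

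The study asked what loss of a chromatin remodelling enzyme does to the newborn eye, and 14 single-colour arrays in 2 experiments were analysed. The Snf2h experiment held 4 samples of pups carrying a lens-conditional knockout (cKO) of Snf2h, an ATPase encoded by Smarca5, and 4 wildtype samples, all C57BL/6. The Brg1 experiment held 3 cKO samples of Brg1, an ATPase encoded by Smarca4, and 3 wildtype samples, all on a mixed background. Every sample of both experiments is titled as postnatal day 1, and those of the Snf2h experiment are also tagged newborn. The labels name neither the Cre driver of either cKO nor the cells that lost Brg1, and leave the origin of the Brg1 samples in separate animals unstated, so p-values there may measure technical spread. Enucleated whole eyes hold cornea, sclera, lens, retina, vessels and some attached muscle, and in such bulk tissue fewer cells of a type and less RNA per cell cannot be told apart.

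The transparent corneal stroma is built by keratocytes from thin, evenly spaced collagen fibrils, and small leucine-rich proteoglycans bind these fibrils and limit their width and spacing. Their core proteins are horseshoe-shaped stacks of leucine-rich repeats that carry keratan sulfate in keratocan, lumican and fibromodulin, and chondroitin or dermatan sulfate in decorin and biglycan. Most are also made in sclera, tendon, cartilage or skin, so in a whole eye their RNA has several sources. In the RefSeq order of genes for GRCm38.p6, Dcn, Lum and Kera are neighbours on chromosome 10, Aspn and Ogn lie on chromosome 13 with only Omd between them, Prelp and Fmod are neighbours on chromosome 1, and Bgn is on the X chromosome.

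Upstream sequence was held for 6 of the 8 genes in the RefSeq promoter table for GRCm38.p6, and 4 are shown because their genes had a probe set whose cKO and wildtype arrays did not overlap in at least 1 experiment. Each run is the 250 bases before the annotated start, read 5′ to 3′ on the plus strand, at chr10:97606955-97607204 for Kera, chr13:49607765-49608014 for Ogn, chr13:49544193-49544442 for Aspn and chrX:73483351-73483600 for Bgn. Capitals mark matches on either strand to the TATA box letters TATAAA, to the GC box letters GGGCGG or to the E-box letters CANNTG, where N is any base.
Kera: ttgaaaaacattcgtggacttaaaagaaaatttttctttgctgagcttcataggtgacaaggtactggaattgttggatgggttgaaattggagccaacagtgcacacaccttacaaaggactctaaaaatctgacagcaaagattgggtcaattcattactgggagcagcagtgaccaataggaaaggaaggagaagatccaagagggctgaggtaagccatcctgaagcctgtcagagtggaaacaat
Ogn: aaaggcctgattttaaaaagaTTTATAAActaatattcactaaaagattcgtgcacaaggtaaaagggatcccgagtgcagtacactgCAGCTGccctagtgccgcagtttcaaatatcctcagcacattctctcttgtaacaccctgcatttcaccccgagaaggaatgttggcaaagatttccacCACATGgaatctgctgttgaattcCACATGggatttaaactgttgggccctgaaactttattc
Aspn: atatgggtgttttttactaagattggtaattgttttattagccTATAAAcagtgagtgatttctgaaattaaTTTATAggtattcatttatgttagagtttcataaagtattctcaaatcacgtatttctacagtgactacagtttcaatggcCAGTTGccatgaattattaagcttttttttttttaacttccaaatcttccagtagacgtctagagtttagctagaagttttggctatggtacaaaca
Bgn: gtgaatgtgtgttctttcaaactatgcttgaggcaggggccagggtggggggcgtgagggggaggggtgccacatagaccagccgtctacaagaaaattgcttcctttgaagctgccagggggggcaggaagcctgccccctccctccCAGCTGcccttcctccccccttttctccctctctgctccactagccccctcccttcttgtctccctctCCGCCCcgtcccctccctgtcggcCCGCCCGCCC

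The runs differed in base composition. GC made up 42.4% of the Kera run, 42% of the Ogn run, 30% of the Aspn run and 64.4% of the Bgn run, against a median of 52.4% over 32851 promoter windows of the same length. The Bgn run held 3 matches to GGGCGG, 2 of them overlapping, and the other 3 runs held 0, while 32.7% of all windows held at least 1. TATAAA matched 2 times in the Ogn run, where both matches overlap, and 2 times in the Aspn run, against 12.4% of all windows with a match. CANNTG matched 3 times in Ogn, 1 time each in Aspn and Bgn and 0 times in Kera, and 66.2% of all windows held it. These matches describe letters in the windows, and binding of any factor was not tested.

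Some arrays stood apart. Snf2h cKO replicates 1 and 2 were near-identical. The SD of their log2 differences over all probe sets was 0.217, whereas the 17 other pairs of same-group arrays gave 0.419 to 0.723, so the labelled 4 samples hold less independent information than their number says. The 3′ minus 5′ difference of the Gapdh control probe sets, a sign of RNA quality, was 0.775 to 0.989 in Snf2h cKO arrays against 1.09 to 4.47 in their wildtype arrays, and 0.633 to 0.963 in Brg1 cKO arrays against 0.683 to 0.738 in theirs. Wildtype replicate 3 of the Snf2h experiment had the 4.47 and also a summed intensity of 4357 over 11 cornified skin and hair markers, against 274 to 337 in the cKO arrays and 325 to 717 in the other wildtype arrays. No probe set of a targeted gene passed the test. The 3 Smarca5 probe sets differed by −0.50 ± 0.16, −0.19 ± 0.25 and 0.31 ± 0.25 (SE) in Snf2h cKO minus wildtype eyes, and the 2 Smarca4 probe sets by −0.74 ± 0.30 and 0.05 ± 0.22 in Brg1 cKO minus wildtype eyes. Whether these probe sets lie in the deleted sequence is not given in the sources used here.

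None of the 18 proteoglycan probe sets passed the test in either knockout. Genes were tested with limma over all 20380 probe sets, and a call needed a Benjamini-Hochberg adjusted p under 0.05. Snf2h cKO eyes gave 0 called of 18, where 0% of all probe sets were called, and the smallest adjusted p among the members was 0.171, for Aspn. Brg1 cKO eyes gave 0 called of 18, where 0.623% of all probe sets were called, and the smallest was 0.379, for Kera. At an unadjusted p under 0.05, 3 of 18 were lower in Snf2h cKO eyes (background 7.58%) and 0 higher (background 10.1%), and 1 of 18 was lower in Brg1 cKO eyes (background 3.68%) and 0 higher (background 4.44%). In either direction the background was 17.7% for Snf2h and 8.13% for Brg1.

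In Snf2h cKO eyes 13 of 18 probe sets had a change below 0, against 53.8% of all probe sets. Of these 13, 5 are Fmod probe sets that read 1 gene. At the gene level, the median change over the brightest probe set of each gene was −0.41, against −0.05 over all genes. In Brg1 cKO eyes 9 of 18 probe sets were below 0, against 50.9% of all, and the median over the 8 genes was −0.34, against 0.02 over all genes. Both medians leaned on single arrays. Without wildtype replicate 1 the Snf2h median was −0.14, and without cKO replicate 1 the Brg1 median was 0.02, while without wildtype replicate 3 it was −0.06.

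**Figure D1:**
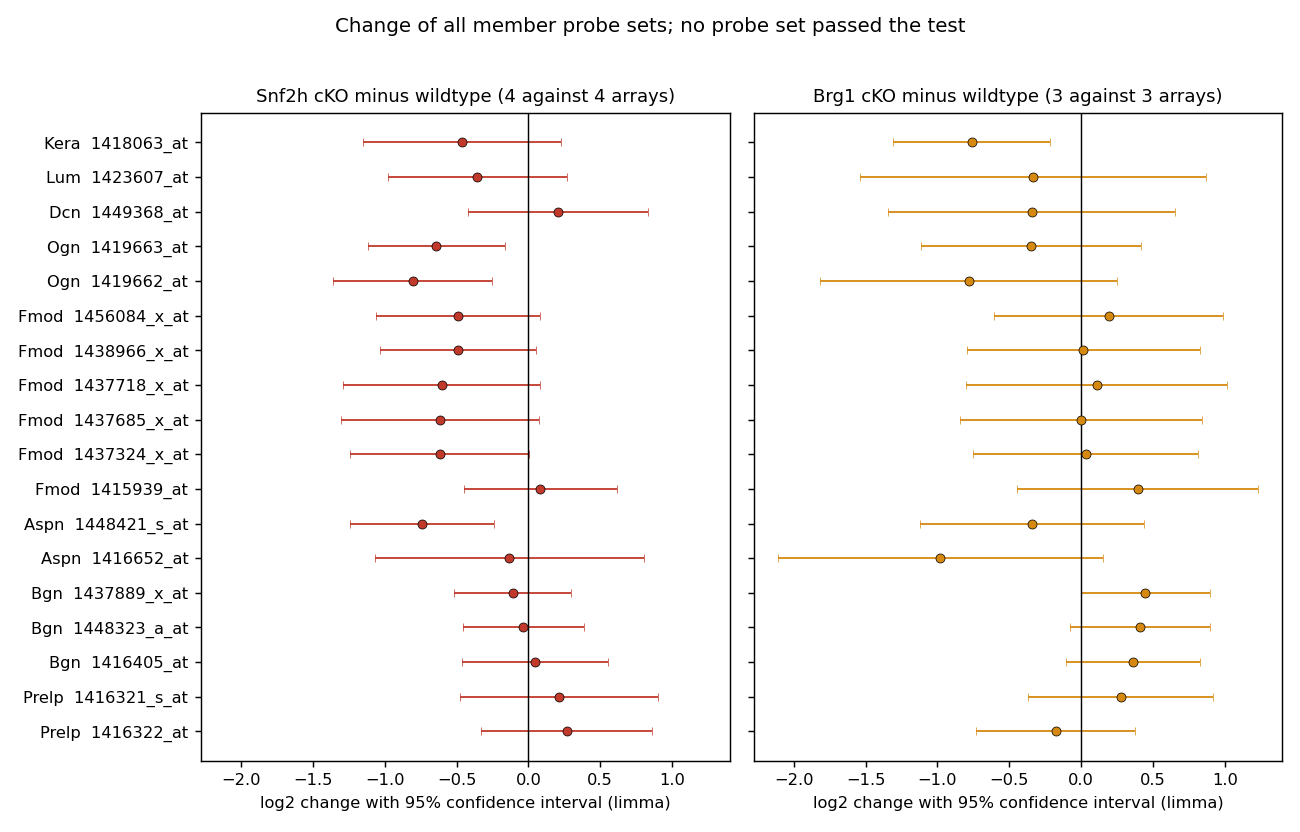
Log2 change (cKO minus wildtype) of each of the 18 probe sets with its unadjusted 95% confidence interval from limma, Snf2h experiment on the left and Brg1 experiment on the right. Intervals of the Ogn probe sets and of Aspn 1448421_s_at lie below 0 on the left and that of Kera on the right, but 0 of 18 passed the adjusted test on either side.

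Keratocan, encoded by Kera, is the keratan sulfate proteoglycan most restricted to the cornea and a marker of keratocytes. Its probe set read 8.80, 9.42 and 9.28 in Brg1 cKO eyes, against 9.74, 9.80 and 10.25 in wildtype eyes. All 3 cKO arrays lay below all 3 wildtype arrays, with replicate 1 the lowest. The mean was 9.17 ± 0.33 in Brg1 cKO and 9.93 ± 0.28 in wildtype eyes (SD, n = 3 each), a change of −0.76 ± 0.23 (SE), or 58.9% of wildtype. Its unadjusted 95% interval was −1.31 to −0.22, and the adjusted p over all probe sets was 0.379. Of all probe sets, 6.2% had cKO arrays wholly below wildtype arrays in this experiment, and Kera was the 1 of 18 member probe sets that did. Without cKO replicate 1 the change was −0.58. In Snf2h cKO eyes Kera read 8.18, 7.99, 8.63 and 9.06, against 9.71, 8.58, 8.90 and 8.52 in wildtype eyes. These groups overlapped, since cKO replicate 4 lay above 3 of the wildtype arrays, and the change was −0.46 ± 0.31 (adjusted p = 0.451). Wildtype replicate 1 was the highest array, and without it the change was −0.20.

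Lumican, encoded by Lum, is a keratan sulfate proteoglycan whose loss makes mouse corneas cloudy. Lum read 6.31, 5.96, 6.16 and 6.36 in Snf2h cKO eyes, against 7.40, 5.99, 6.62 and 6.20 in wildtype eyes. The cKO arrays were tightly grouped and overlapped the wildtype arrays, whose spread came mostly from replicate 1. The change was −0.36 ± 0.28 (adjusted p = 0.523), and −0.07 without wildtype replicate 1. Brg1 cKO eyes read 7.26, 9.12 and 8.93, against 8.44, 8.45 and 9.41 in wildtype eyes. Replicate 1 of the cKO lay below every wildtype array and the other 2 within their range, so the change of −0.33 ± 0.52 (adjusted p = 0.913) became 0.25 without that array.

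Fibromodulin, encoded by Fmod, carries keratan sulfate, binds collagen fibrils and is prominent in sclera and tendon. Its brightest probe set, 1456084_x_at, read 11.48, 11.53, 11.71 and 11.99 in Snf2h cKO eyes, against 12.57, 11.99, 12.63 and 11.49 in wildtype eyes. Wildtype replicates 1, 2 and 3 lay above every cKO array, replicate 2 by less than the rounding of these values, while wildtype replicate 4 lay among them. The change was −0.49 ± 0.26 (adjusted p = 0.340). Brg1 cKO eyes read 11.37, 11.20 and 10.54, against 10.72, 10.34 and 11.48 in wildtype eyes, which overlapped and differed by 0.19 ± 0.34 (adjusted p = 0.927). The suffix x_at marks probe sets in which some probes may also match other transcripts, and 5 of the 6 Fmod probe sets carry it. Those 5 moved together over the arrays (Pearson r of 0.961 to 0.995 over 13 values). Their changes in Snf2h cKO eyes spanned −0.62 to −0.49 and those in Brg1 cKO eyes −0.003 to 0.19. The remaining probe set, 1415939_at, correlated less with them (0.484 to 0.564) and differed by 0.08 ± 0.24 in Snf2h cKO eyes and 0.40 ± 0.36 in Brg1 cKO eyes. The probe sets of Fmod therefore disagreed on the sign in the Snf2h experiment.

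Prelp encodes a heparan sulfate-binding member that lies next to Fmod in the genome. Its probe set 1416321_s_at, whose suffix marks probes shared by several transcripts, read 9.01, 8.93, 8.14 and 9.05 in Snf2h cKO eyes, against 8.52, 8.36, 9.39 and 8.01 in wildtype eyes. Cornified skin markers were highest in the same wildtype array, replicate 3, that had the highest Prelp level, and their part in the Prelp value was not tested. The change was 0.22 ± 0.31 (adjusted p = 0.738) with that array and 0.49 without it. Brg1 cKO eyes read 7.83, 7.07 and 7.02, against 6.72, 7.04 and 7.34 in wildtype eyes, an overlap in which cKO replicate 1 was highest. The change was 0.28 ± 0.28 (adjusted p = 0.852), and 0.01 without cKO replicate 1. The other probe set, 1416322_at, differed by 0.27 ± 0.27 in Snf2h cKO eyes and −0.18 ± 0.24 in Brg1 cKO eyes, neither past the test.

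Osteoglycin or mimecan, encoded by Ogn, is a further keratan sulfate proteoglycan of the cornea. Its brighter probe set, 1419663_at, read 9.21, 9.13, 9.68 and 9.81 in Snf2h cKO eyes, against 10.54, 9.83, 10.10 and 9.93 in wildtype eyes. Every cKO array lay below every wildtype array, by a narrow gap between cKO replicate 4 and wildtype replicate 2. The change was −0.64 ± 0.21, or 64.1% of wildtype, with an unadjusted 95% interval of −1.12 to −0.16 and an adjusted p of 0.192. The other probe set, 1419662_at, read 6.10, 5.79, 6.52 and 6.94 in Snf2h cKO eyes, against 7.43, 6.88, 6.99 and 7.27 in wildtype eyes. Only cKO replicate 4 reached into the wildtype range, and the change was −0.81 ± 0.25 (57.2% of wildtype, adjusted p = 0.173). With the near-identical cKO replicates 1 and 2 averaged, the changes were −0.55 and −0.68. In Brg1 cKO eyes 1419663_at read 9.44, 10.40 and 10.19, against 9.93, 10.31 and 10.85 in wildtype eyes. The groups overlapped, with cKO replicate 1 the lowest array. The change was −0.35 ± 0.33 (adjusted p = 0.844), and −0.06 without cKO replicate 1, while 1419662_at gave −0.78 ± 0.44 (adjusted p = 0.742) and −0.32 without it.

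Asporin, encoded by Aspn, is a relative of decorin that binds collagen and calcium and restrains TGF-beta. Its probe set 1448421_s_at carries the suffix that marks probes shared by several transcripts, and 1416652_at does not. The former read 6.63, 6.37, 6.82 and 6.56 in Snf2h cKO eyes, against 7.77, 6.93, 7.69 and 6.96 in wildtype eyes. All 4 cKO arrays lay below all 4 wildtype arrays, as 4.17% of all probe sets did in this experiment. Aspn 1448421_s_at and Ogn 1419663_at were the 2 of 18 member probe sets with that order. The change was −0.74 ± 0.22, or 59.8% of wildtype, with an unadjusted 95% interval of −1.24 to −0.24 and an adjusted p of 0.171. Without wildtype replicate 1 or without replicate 3, 2 of 18 were still in that order, against 8.46% and 5.26% of all probe sets, and the Aspn change was −0.60 and −0.62. The other probe set, 1416652_at, read 5.61, 5.58, 6.67 and 6.77 in Snf2h cKO eyes, against 7.46, 5.75, 6.08 and 5.86 in wildtype eyes. The near-identical cKO replicates 1 and 2 lay below every wildtype array, while cKO replicates 3 and 4 lay above all but wildtype replicate 1. The change was −0.13 ± 0.42, and 0.06 with cKO replicates 1 and 2 averaged. A lower level thus held in only 1 of the 2 Aspn probe sets, which correlated over the arrays with r = 0.656. In Brg1 cKO eyes 1448421_s_at read 6.75, 7.76 and 7.85, against 7.71, 7.48 and 8.19 in wildtype eyes, an overlap in which cKO replicate 1 was lowest. The changes in Brg1 cKO eyes had the reverse order of sizes, −0.34 ± 0.33 for 1448421_s_at (adjusted p = 0.851) and −0.98 ± 0.48 for 1416652_at (adjusted p = 0.696). Without cKO replicate 1 these were 0.01 and −0.55.

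Decorin, encoded by Dcn, carries chondroitin or dermatan sulfate, coats collagen fibrils and binds TGF-beta. Dcn read 9.81, 9.84, 10.03 and 10.50 in Snf2h cKO eyes, against 10.23, 9.46, 9.24 and 10.42 in wildtype eyes. The groups overlapped, and the change was 0.21 ± 0.28 (adjusted p = 0.724), with an unadjusted 95% interval of −0.42 to 0.84. The Dcn change was 0.0075 without wildtype replicate 3, 0.34 without wildtype replicate 1, and between 0.0075 and 0.40 over all fits that left out 1 array. Brg1 cKO eyes read 10.07, 11.45 and 11.55, against 11.58, 10.84 and 11.69 in wildtype eyes. Replicate 1 of the cKO was the lowest of the 6 arrays, and the change of −0.34 ± 0.43 (adjusted p = 0.890) became 0.13 without it.

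Biglycan, encoded by Bgn, is the closest relative of decorin and in free form a ligand of toll-like receptors. Its brightest probe set, 1437889_x_at, read 11.23, 11.58 and 11.58 in Brg1 cKO eyes, against 11.06, 10.80 and 11.20 in wildtype eyes. The deposited intensity of cKO replicates 2 and 3 was identical, at 3069.244, which narrows the spread of that group. As for Fmod, the suffix x_at means that some probes may also match other transcripts. All 3 cKO arrays lay above all 3 wildtype arrays, though cKO replicate 1 only just. The change was 0.45 ± 0.19, or 136% of wildtype, with an adjusted p of 0.618. The same order of the groups was seen for the probe sets 1448323_a_at (0.41 ± 0.21) and 1416405_at (0.36 ± 0.20). These 3 were the 3 of 18 member probe sets with cKO arrays wholly above wildtype arrays, against 7.23% of all probe sets, and they are readings of 1 gene that correlated with each other (r of 0.762 to 0.909). Leaving out each array in turn, the change ran from 0.33 to 0.56 for Bgn 1437889_x_at, 0.27 to 0.53 for 1448323_a_at and 0.19 to 0.45 for 1416405_at. The lowest value for 1416405_at was the one without wildtype replicate 2, and that for 1448323_a_at the one without cKO replicate 2. In Snf2h cKO eyes 1437889_x_at read 11.55, 11.67, 11.14 and 11.53, against 11.85, 11.49, 11.23 and 11.77 in wildtype eyes. There the groups overlapped, with changes of −0.11 ± 0.18, −0.04 ± 0.19 and 0.04 ± 0.23 for the 3 probe sets.

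**Figure D2:**
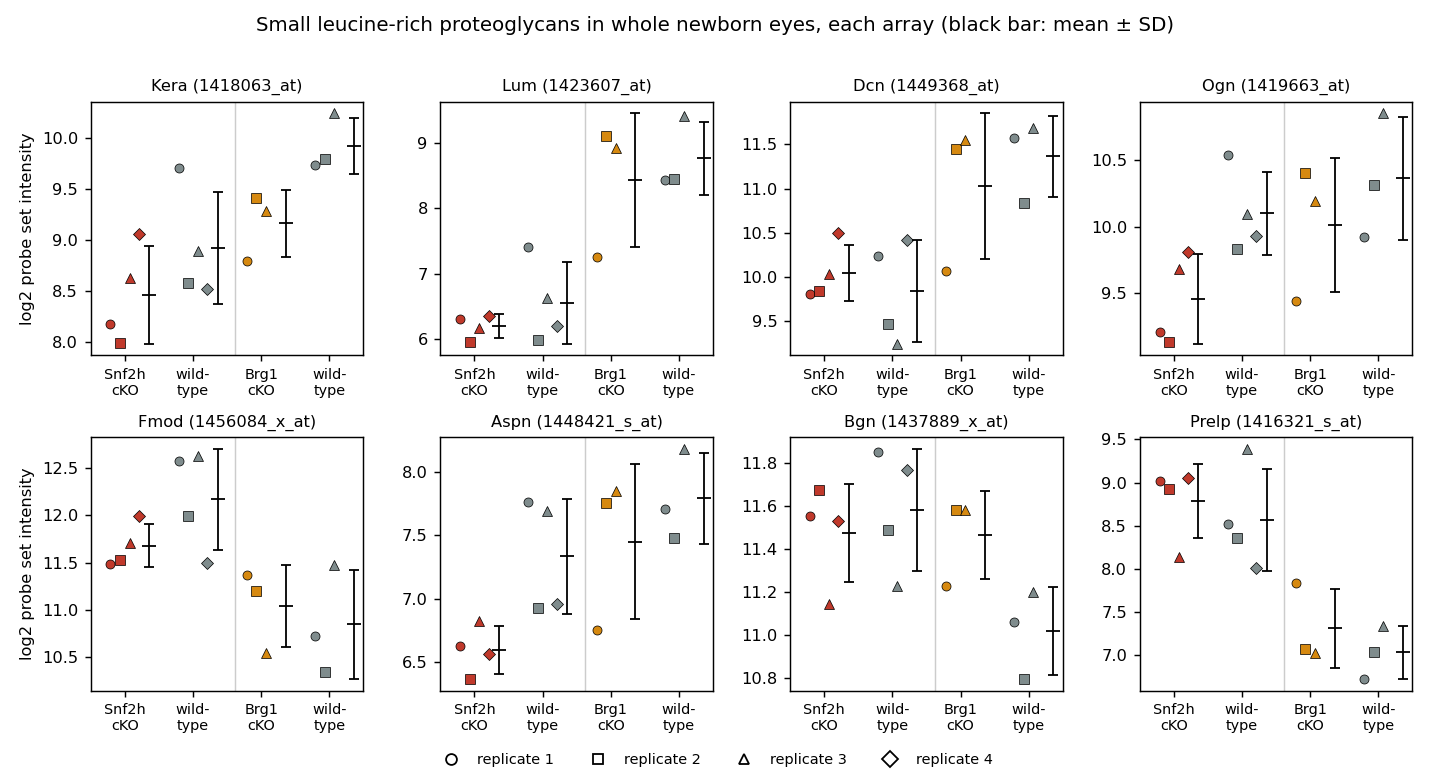
Log2 intensity of the brightest probe set of each of the 8 genes on every array, with the mean and SD of each group as a black bar, each cKO left of its own wildtype and symbols giving the replicate number. Kera in Brg1 cKO eyes and Ogn and Aspn in Snf2h cKO eyes lie wholly below their wildtype arrays, Bgn in Brg1 cKO eyes lies wholly above, and the other groups overlap.

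The effects of the knockouts on the members were not told apart. Of 18 probe sets, 0 differed between the Brg1 effect and the Snf2h effect at an adjusted p under 0.05, where 0.687% of all probe sets did (0.142% lower and 0.545% higher). At an unadjusted p under 0.05, 0 of 18 differed, against 6.48% of all probe sets lower and 6.07% higher, and 4 of 18 were below 0, against 47.4% of all. The smallest adjusted p was 0.411, for Bgn 1437889_x_at, whose Brg1 effect minus Snf2h effect was 0.55 ± 0.27. For Kera the same difference was −0.30 ± 0.43, with an unadjusted 95% interval of −1.23 to 0.63, and for Fmod 1456084_x_at it was 0.69 ± 0.44. For Ogn 1419663_at the interval ran from −0.56 to 1.14 and for Aspn 1448421_s_at from −0.48 to 1.28, so differences of more than 1 on the log2 scale lay within the intervals.

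Single arrays moved many members at once. Brg1 cKO replicate 1 was the lowest of its group in 6 of 8 genes and the highest in the other 2, Fmod and Prelp. Against the mean of its wildtype arrays it read −1.13 for Kera, −1.51 for Lum, −1.30 for Dcn, −0.92 for Ogn and −1.04 for Aspn. The other 2 Brg1 cKO arrays read −0.51 and −0.65 for Kera, and between −0.17 and 0.35 for Lum, Dcn, Ogn and Aspn. By the brightest probe set of each gene, used here, Kera alone of these 5 was low in all 3. That order depended on the probe set. Ogn 1419662_at read 6.37, 7.54 and 7.98 in Brg1 cKO eyes, against 7.77, 7.78 and 8.69 in wildtype eyes. Aspn 1416652_at read 6.83, 7.61 and 8.65, against 8.62, 8.11 and 9.30. Their changes were −0.78 and −0.98. Over 19 collagens and fibril partners Brg1 cKO replicate 1 averaged 9.26 in log2 level, with 10.48 and 9.93 in the other 2 cKO arrays and 9.56 to 10.24 in wildtype arrays. Over 8 skeletal muscle markers it had 9.59, against 11.19 and 10.88 in the other 2 cKO arrays and 10.01 to 10.91 in wildtype arrays. Over 8 endothelial and pericyte markers it had 7.49, against 8.83 and 8.25 in the other 2 and 7.78 to 8.34 in wildtype arrays. The same array was the highest cKO array over 8 retina markers (8.61, against 7.71 and 8.42) and over 6 pigment cell markers (9.29, against 9.09 and 9.07). The part of tissue content in its low proteoglycan levels was not tested. Leaving out each Brg1 array in turn, the change ran from −0.67 to 0.25 for Lum, −0.61 to 0.13 for Dcn, −0.57 to −0.06 for Ogn 1419663_at and −0.54 to 0.01 for Aspn 1448421_s_at. Wildtype replicate 3 of that experiment, the highest of its group in all 8 genes, also mattered. Without it the changes of Lum, Dcn, Ogn 1419663_at and Aspn 1448421_s_at were −0.01, −0.18, −0.10 and −0.14. Wildtype replicate 1 of the Snf2h experiment was the highest of its group in 5 of 8 genes, with 0.79 for Kera and 0.85 for Lum above the wildtype mean.

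**Figure D3:**
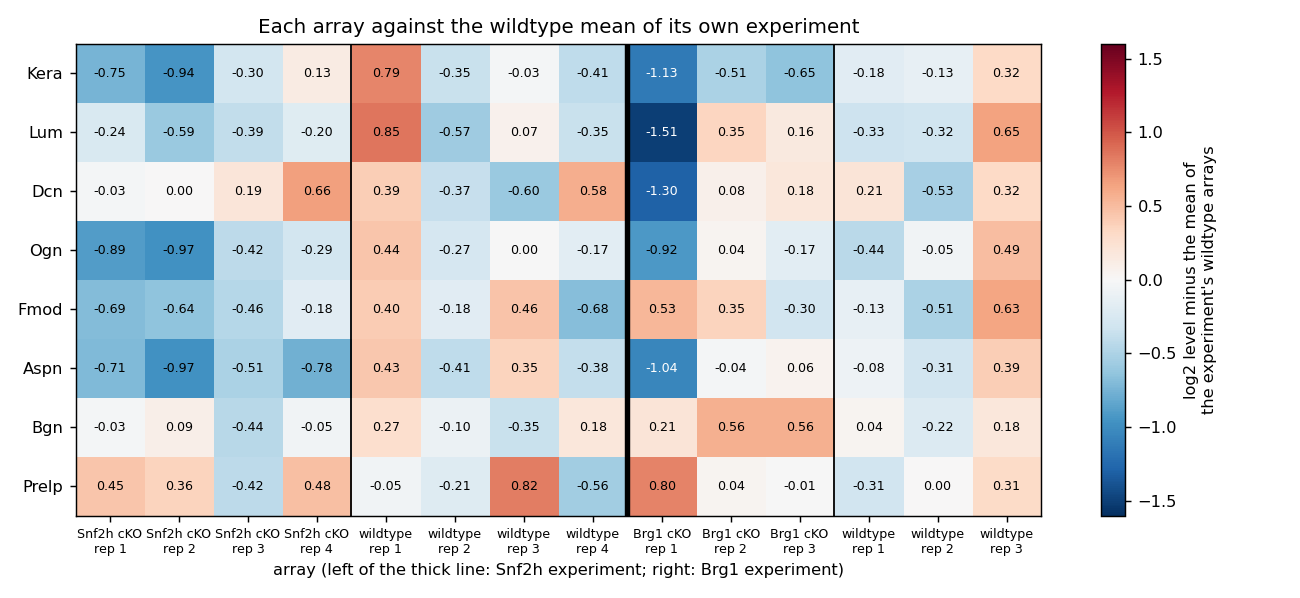
Log2 level of each gene (rows, brightest probe set) on each array (columns) minus the mean of the wildtype arrays of the same experiment, blue for lower and red for higher, Snf2h experiment left of the thick line and Brg1 experiment right of it. Brg1 cKO replicate 1 is blue for Kera, Lum, Dcn, Ogn and Aspn with values of −0.92 to −1.51, and wildtype replicate 1 of the Snf2h experiment is red in 7 of 8 rows.

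Kera, Lum, Ogn and Aspn varied together over the arrays. Correlations were taken over 13 values, with the near-identical Snf2h cKO arrays averaged and each experiment centred on its mean. They are descriptions with no test, because arrays share their group, their processing and the mix of tissues in the eye. Pearson r was 0.733 to 0.867 for the 6 pairs among these genes, with a median of 0.859. These are the 6 highest of the 28 pairs of the 8 genes, so the group describes these same values and was not set beforehand. Once Brg1 cKO replicate 1 and Snf2h wildtype replicate 1 were left out, r was 0.494 to 0.745 (median 0.724). The arrays left out were those farthest from the median in the mean level of these genes. Kera with Ogn gave 0.895 within the Snf2h experiment and 0.824 within the Brg1 experiment, and Lum with Aspn gave 0.787 and 0.966. Over all 28 pairs of the 8 genes r ran from −0.522 to 0.867 with a median of 0.374, against a median of 0.004 over pairs within an evenly spaced sample of all genes. The 13 pairs that include Bgn or Prelp had a median of −0.06. The 5 pairs of genes that lie in the same chromosomal cluster had a median of 0.629 and the other 23 pairs 0.314, with Lum and Ogn, on different chromosomes, the highest pair of all. Fmod correlated with Kera at 0.784 within the Snf2h experiment and −0.06 within the Brg1 experiment.

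Genes other than the 8 whose pattern was most like that of each member were named by the highest Pearson r over the same 13 values. Picking the highest r among all measured genes over so few values gives high r by selection, and the likeness was not tested. Stk39 (0.867), Pmp22 and Akap12 followed Kera, and Tek (0.933), Lmod2 and Sema3c followed Lum. Kdelr1 (0.916), Rsu1 and Tagln were nearest to Dcn, and Cap2 (0.924), Shc1 and Fbln5, an elastic fibre protein, to Ogn. Fmod was nearest to Pcolce (0.888), the enhancer of procollagen processing, Clec11a and Chad, itself a small leucine-rich repeat protein of cartilage. Slc38a4 (0.908), Lyve1 and Sik1 followed Aspn, Bcl6b (0.941), Emp3 and Dysf followed Bgn, and Wdtc1 (0.926), Cntnap4 and Scn3b followed Prelp.

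Levels in the 2 experiments are given side by side only, since strain, experiment and processing cannot be told apart. Lum lay between 7.26 and 9.41 on the Brg1 experiment's arrays and between 5.96 and 7.40 on the Snf2h experiment's arrays. Dcn lay between 10.07 and 11.69 on the Brg1 experiment's arrays and between 9.24 and 10.50 on the Snf2h experiment's. Fmod 1456084_x_at had the opposite order, 10.34 to 11.48 against 11.48 to 12.63, as did Prelp 1416321_s_at, 6.72 to 7.83 against 8.01 to 9.39.

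The wider family was measured through 4 of 10 listed genes, and 0 passed the test in either knockout. Opticin, encoded by Optc and made by the ciliary epithelium for the vitreous, lies beside Prelp. Optc read 6.45, 6.64, 6.93 and 7.34 in Snf2h cKO eyes, against 5.93, 6.29, 5.33 and 6.44 in wildtype eyes. It read 4.91, 5.94 and 6.11 in Brg1 cKO eyes, against 6.70, 7.09 and 7.41 in wildtype eyes. All Snf2h cKO arrays lay above all their wildtype arrays (0.84 ± 0.27, adjusted p = 0.185), and all Brg1 cKO arrays below theirs (−1.41 ± 0.35, adjusted p = 0.211). The difference of the effects passed the test at −2.26 ± 0.46 (adjusted p = 0.0414), and over the alternatives its adjusted p ran from 0.0274 to 0.126. The Optc call was lost in 11 of 14 fits that left out 1 array, and held without Snf2h wildtype replicate 2 or 4 or Brg1 cKO replicate 3. Osteomodulin, encoded by Omd between Aspn and Ogn, read 5.54, 5.85 and 5.82 in Brg1 cKO eyes, against 6.38, 6.73 and 7.60 in wildtype eyes. Every cKO array was lower, but the change of −1.17 ± 0.31 did not pass (adjusted p = 0.273). Epiphycan, encoded by Epyc next to Kera, differed by −0.57 ± 0.20 in Snf2h cKO eyes (adjusted p = 0.199) and by 0.70 ± 0.48 in Brg1 cKO eyes (adjusted p = 0.785).

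The enzymes that build the sugar chains and the collagens that the proteoglycans bind gave 0 calls in either knockout. Of 27 measured genes for keratan, chondroitin and dermatan sulfate synthesis, 14 were below 0 in Snf2h cKO eyes (median −0.07) and 7 in Brg1 cKO eyes (median 0.07). Chst14, the sulfotransferase of dermatan sulfate, had the smallest p in Snf2h cKO eyes at −0.73 ± 0.18 (adjusted p = 0.120), with all cKO arrays below all wildtype arrays. The next by p went the other way, B3gat3 at 0.57 ± 0.19 (adjusted p = 0.199) and Slc35b2 at 0.62 ± 0.22 (adjusted p = 0.211). In Brg1 cKO eyes Chst2 had the smallest p, at 0.79 ± 0.23 (adjusted p = 0.3325). Of 19 collagens and fibril partners, 17 were below 0 in Snf2h cKO eyes, with a median of −0.36 against −0.05 over all genes, and 7 in Brg1 cKO eyes, with a median of 0.06. The mean log2 level of the list was 9.60, 9.60, 9.51 and 9.41 in Snf2h cKO arrays, against 10.16, 9.39, 10.001 and 9.75 in wildtype arrays. Wildtype replicate 2 lay below every cKO array, and wildtype replicates 1 and 3 were the highest. Lox, which cross-links collagen, read 8.63, 8.64, 9.24 and 9.80 in Snf2h cKO eyes, against 10.80, 9.51, 10.22 and 10.27 in wildtype eyes. Its change of −1.12 ± 0.32 did not pass (adjusted p = 0.154), and the fibril collagen gene Col5a2 gave −0.65 ± 0.22 (adjusted p = 0.196). Tnxb, the next by p, went the other way at 0.76 ± 0.29 (adjusted p = 0.230). In Brg1 cKO eyes Tgfbi had the smallest p of the list, at 0.87 ± 0.30 (adjusted p = 0.480).

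For the effect of each knockout taken alone, the calls among the partner genes lay in the lists of matrix proteases and of ligands and receptors, and came from Brg1 cKO eyes. Of 19 proteases, enhancers and inhibitors, 3 rose and 0 fell in Brg1 cKO eyes, and 0 passed in Snf2h cKO eyes. Over all probe sets 0.363% were called higher and 0.26% lower in Brg1 cKO eyes. Stromelysin-1, encoded by Mmp3 and able to cut proteoglycan cores, read 9.53, 10.60 and 10.52 in Brg1 cKO eyes, against 4.46, 4.28 and 4.59 in wildtype eyes, and rose by 5.77 ± 0.30 on the log2 scale (adjusted p = 0.000537). The groups lay far apart, but the wildtype levels were low. Mmp3, Mmp12, Mmp10 and Cd14 all had mean levels under the filter on dim probe sets and, with no detection calls at hand, no fold is given for them. Mmp12, the macrophage elastase, rose by 3.79 ± 0.39 (adjusted p = 0.0114) and Mmp10, stromelysin-2, by 3.54 ± 0.49 (adjusted p = 0.0326). The Mmp3 call held without any 1 array, with an adjusted p of at most 0.00976. The Mmp12 call was lost without any 1 of the wildtype arrays (adjusted p of 0.0647 to 0.0876), and that of Mmp10 without any 1 of them (0.109 to 0.193) or without cKO replicate 3 (0.125). Timp1, an inhibitor of such proteases, differed by 2.85 ± 0.60 without passing (adjusted p = 0.142). Of 23 ligands and receptors, Cd14, a co-receptor of toll-like receptors, rose by 5.80 ± 0.52 in Brg1 cKO eyes (adjusted p = 0.00684, and 0.0557 without wildtype replicate 1). Tlr2, a toll-like receptor that binds biglycan, differed by 1.53 ± 0.43 (adjusted p = 0.314), and Tgfb1, a ligand that decorin, asporin and biglycan bind, by 0.95 ± 0.19 (adjusted p = 0.123), both with cKO arrays wholly above wildtype arrays.

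Among 19 regulators of periocular mesenchyme, the embryonic source of the stroma, 0 passed in either knockout. Tfap2b was listed here for that lineage, but which cells of the whole eye gave its RNA was not tested. It read 8.39, 8.11 and 9.04 in Brg1 cKO eyes, against 9.50, 8.97 and 9.36 in wildtype eyes. Snf2h cKO eyes read 9.65, 9.79, 10.26 and 10.01, against 8.93, 9.07, 8.51 and 9.11 in wildtype eyes. The Snf2h groups did not overlap, with a change of 1.02 ± 0.19 (adjusted p = 0.0865), and the difference of the effects passed the test at −1.78 ± 0.33 (adjusted p = 0.0263). Over the alternatives that adjusted p ran from 0.00794 to 0.0979, and it missed the threshold in 7 of 14 fits that left out 1 array, those without Snf2h wildtype replicate 3, Snf2h cKO replicate 2, 3 or 4, Brg1 wildtype replicate 1 or 3, or Brg1 cKO replicate 2. The difference of the effects was also below 0 in all 8 retina markers (median −0.61), with 0 of them passing the test. Foxc1, needed for the anterior segment, differed by −0.78 ± 0.30 in Snf2h cKO eyes and −0.68 ± 0.27 in Brg1 cKO eyes, with adjusted p of 0.237 and 0.569.

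**Figure D4:**
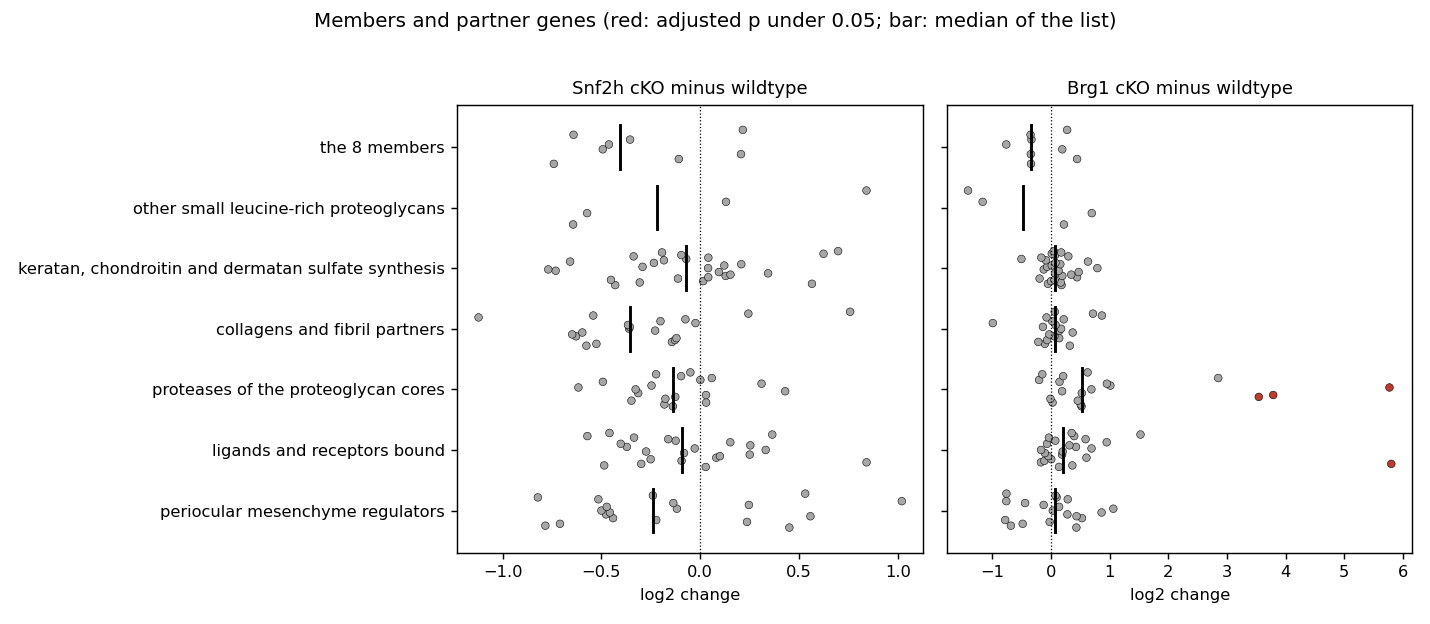
Log2 change (cKO minus wildtype) of the 8 genes and of each list of partner genes, 1 point per gene, with a bar at the median of the list and red for an adjusted p under 0.05, on different scales for Snf2h (left) and Brg1 (right). Red points lie only on the right, 3 proteases and 1 receptor, and 17 of 19 collagens and fibril partners lie left of 0 in Snf2h cKO eyes.

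Other markers of corneal stroma and of the tissues around it were set beside these values. Of 6 measured keratocyte markers, 0 passed in either knockout, and their summed intensity was 8997 to 9375 in Snf2h cKO eyes against 7250 to 8739 in wildtype eyes, and 8612 to 9559 in Brg1 cKO eyes against 6367 to 7752 in wildtype eyes. Most of this sum is Ptgds, with mean log2 levels of 13.04 in Snf2h cKO and 12.86 in wildtype eyes, and 12.76 in Brg1 cKO and 12.56 in wildtype eyes. The others went both ways in Snf2h cKO eyes, with −0.54 for Angptl7, −0.60 for Thbs4 and 0.58 for Col8a1. Mean log2 levels of Angptl7 were low, at 3.75 in Snf2h cKO and 4.29 in wildtype eyes. The mean log2 level of the 6 markers overlapped between the groups, at 7.65 to 7.91 in Snf2h cKO eyes against 7.66 to 7.88 in wildtype eyes, and 7.68 to 8.12 in Brg1 cKO eyes against 7.41 to 8.38 in wildtype eyes. Aldh3a1, a crystallin-like enzyme of corneal cells, differed by −1.46 ± 0.35 in Brg1 cKO eyes (adjusted p = 0.201), and Tnc, a matrix glycoprotein of growing and injured tissue, by 1.51 ± 0.42 (adjusted p = 0.303). Some markers of other cells passed the test in Brg1 cKO eyes. Of these, 5 of 7 wound epithelium markers, 2 of 9 neutrophil markers and 1 of 10 macrophage markers rose. Falls were called for 2 of 12 corneal and skin epithelium markers and 1 of 9 lens fibre markers. Over all probe sets 0.363% were called higher and 0.26% lower, and the lists were chosen with earlier results of these data known. All 9 lens fibre markers had Brg1 cKO arrays wholly below wildtype arrays, as 6.2% of all probe sets did, with changes of −4.35 to −0.84. Their summed intensity was 11801 to 35693 in Brg1 cKO eyes against 56282 to 63145 in wildtype eyes. The neutrophil markers that rose were S100a9 (12.06 in cKO and 7.59 in wildtype eyes on the log2 scale) and S100a8 (10.78 and 5.77), which injured epithelium also makes, and they carry most of the summed intensity of 4084 to 12733 against 283 to 415. The receptor genes Csf3r and Cxcr2 differed by 1.57 (adjusted p = 0.242) and 1.95 (adjusted p = 0.512), with cKO arrays wholly above wildtype arrays. Granule genes went both ways without passing, with 0.96 for Ngp, 0.67 for Camp, −0.01 for Mpo, −0.02 for Elane and −0.47 for Ltf. Mean log2 levels of Mpo and Elane were low, at 2.19 and 2.28 in Brg1 cKO eyes and 2.20 and 2.31 in wildtype eyes. Summed intensity of the wound epithelium markers was 3621 to 5911 in Brg1 cKO eyes against 747 to 863 in wildtype eyes and that of the epithelium markers 5827 to 8127 against 10873 to 13108. Krt12, the keratin of corneal epithelium, fell by 3.70 ± 0.20 (adjusted p = 0.000546). The part of these tissues in the proteoglycan levels was not tested. In Snf2h cKO eyes 0 markers of the 12 lists passed, and all 8 retina markers were above 0 (median 0.89), with summed intensity of 8015 to 10544 against 4997 to 6553 in wildtype eyes.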

How the data were processed

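Total RNA of whole eyes was labelled with biotin after amplification and read on 14 single-colour Affymetrix arrays. Per the submitters' processing notes the authors used RMA, and the table they deposited holds 1 linear intensity for each probe set and array. The RMA version, and whether both experiments were processed together, are not given in the sources used here. The number of arrays limits the precision.

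The log2 of the deposited intensity was taken with no offset, filter or further scaling. Of 22690 probe sets, 64 controls, 691 with several genes and 1555 with none were left out, and 20380 were tested. Each experiment was fitted alone, cKO minus wildtype, by lmFit and eBayes of limma 3.58.1 under R 4.3.3. The difference of the effects was fitted over all 14 arrays with 4 group means. Calls used a two-sided Benjamini-Hochberg adjusted p under 0.05 over all probe sets. Errors of changes are moderated SEs, and partner genes are read from the same fit through their brightest probe set.

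The members, partner lists and marker lists were chosen with earlier results of these data known. Named were every member probe set, Smarca5 and Smarca4, and the 3 genes most like each member. Partner and marker genes were named from the up to 4 per list with the smallest p. Outside that rule, Ptgds and the neutrophil markers of larger p were also named for Brg1 cKO eyes, and Ptgds for Snf2h cKO eyes. Fits were tested on simulated data. Alternatives covered scaling, dim probe sets, probe sets per gene, annotation, variance moderation, array weights, replicate block, averaged arrays, a joint fit and leaving out each array. The counts of groups that do not overlap without certain arrays, and those arrays, were chosen after seeing the data. Promoter windows came from RefSeq for GRCm38.p6.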

Additional observations from a re-analysis of the deposited data

Results flagged for a closer look

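Prelp 1416321_s_at read 8.14 in Snf2h cKO replicate 3, against 8.93 to 9.05 in the other 3 cKO arrays, and the gap was 0.863 of the range of the group. It was the 1 of 36 groups of 4 arrays in which a sample lay that far out, and chance gives about 1 in 20.

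Several partner genes differed between the knockout effects, tested as the Brg1 effect minus the Snf2h effect in limma. Optc, a relative of the members, had a difference of −2.26 (adjusted p = 0.0414), and its arrays moved in opposite directions. Mmp3 had 6.39 (adjusted p = 4.34e-06), Mmp12 had 3.76 (adjusted p = 0.000489), Mmp10 had 3.67 (adjusted p = 0.00435) and Cd14 had 6.10 (adjusted p = 0.000116). Tfap2b had −1.78 (adjusted p = 0.0263).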

How the results depend on the processing

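The count of 0 called member probe sets held under every alternative run in each of the 3 comparisons, and the smallest adjusted p reached was 0.0542, for Snf2h with array weights. Of 978 member values under the alternatives, 918 kept their direction and 60 turned it, all of them short of the threshold. The cause was not tested.

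In Snf2h cKO eyes Bgn 1416405_at was −5.2e-05 with median centring and −0.070 with cKO replicates 1 and 2 averaged, where Aspn 1416652_at was 0.056. With array weights Fmod 1415939_at was −0.12 and Bgn 1448323_a_at 0.011. In Brg1 cKO eyes Fmod 1437324_x_at and 1438966_x_at were −0.016 and −0.031 with median centring, and −0.12 and −0.14 with array weights, where 1437718_x_at was −0.072. For the difference of effects, Prelp 1416321_s_at was −0.16 with array weights and Ogn 1419662_at −0.11 with averaged arrays.

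Leaving out 1 array in turn, the Snf2h change ran over −0.34 to 0.26 for Aspn 1416652_at, −0.079 to 0.21 for Bgn 1416405_at, −0.23 to 0.0017 for Bgn 1437889_x_at, −0.12 to 0.11 for Bgn 1448323_a_at and −0.036 to 0.28 for Fmod 1415939_at. The Brg1 change ran over −0.54 to 0.010 for Aspn 1448421_s_at, −0.61 to 0.13 for Dcn 1449368_at, −0.24 to 0.32 for Fmod 1437324_x_at, −0.28 to 0.32 for Fmod 1437685_x_at, −0.22 to 0.46 for Fmod 1437718_x_at, −0.23 to 0.32 for Fmod 1438966_x_at, −0.060 to 0.51 for Fmod 1456084_x_at, −0.67 to 0.25 for Lum 1423607_at and −0.29 to 0.017 for Prelp 1416322_at. The difference of effects ran over −0.32 to 0.61 for Lum 1423607_at, −0.32 to 0.49 for Ogn 1419662_at and −0.21 to 0.25 for Prelp 1416321_s_at.

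The count over all probe sets was less stable. For Snf2h it was 5 with dim probe sets left out, 2 with 1 probe set per gene, 3 with every probe set, 7 with trended robust moderation, 561 with array weights and 5 in the joint fit, and leaving out 1 array gave 0 to 184, the highest without wildtype replicate 1 and 77 without wildtype replicate 4. For Brg1 the 127 became 15 with dim probe sets left out and 280 in the joint fit, and 25 to 199 leaving out 1 array. For the difference the 140 became 7 with dim probe sets left out and 82 with averaged arrays, and 66 to 290 leaving out 1 array. With the replicate block 50 were called for Brg1 and 81 for the difference. Same-numbered arrays correlated at −0.230 to 0.133 in their deviations from group means, so the numbers were not taken to pair samples.

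The difference for Optc missed the threshold with averaged arrays (adjusted p = 0.0631), and that for Tfap2b with dim probe sets left out (0.0565) or the replicate block (0.0762).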
